A study of Rattus norvegicus with 8 samples.

Results

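Transcripts of 32 genes of the red cell membrane and of red cell maturation were followed in the whole blood of rats with AngII-induced or DOCA–HS-induced hypertension, before and after administration of Chios mastic gum (CMG), the resin of Pistacia lentiscus var. Chia. The genes were chosen by name, as parts of the membrane skeleton, membrane proteins, erythroid transcription factors and late maturation genes. Of the 32 names, 28 were found among the 17446 genes counted, and Epb41, Ermap, Tspo2 and Ube2o were not analysed here. All libraries came from blood drawn by cardiac puncture into heparin from wild-type male Wistar rats, 2 libraries per group and 8 in all. The age of 12 to 14 weeks is the one given for the rats of the study, not for each blood sample, and the samples were drawn at different weeks. In the AngII model, angiotensin II was infused at 0.4 mg/kg/day from an osmotic minipump, with blood samples from week 1, before CMG, and from week 5, when CMG had been given at 220 mg/kg for 4 weeks. In the DOCA–HS model, deoxycorticosterone acetate was injected weekly at 100 mg/kg with 0.9% NaCl and 1% KCl as drinking fluid, with blood samples from week 3 and, 4 weeks of the same CMG dose later, from week 7. No vehicle-treated library was analysed here, so an after-to-before difference also holds 4 further weeks of the model. Nothing in the sources used here says that the 2 libraries of a group came from separate rats, so p-values measure only the spread between these libraries.

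As background, the mature mammalian red cell has no nucleus, and the erythroid messages measured in blood are those that reticulocytes and young red cells still carry. The membrane of these cells rests on a spectrin and actin skeleton, which ankyrin and protein 4.2 tie to the anion exchanger band 3. GATA1, TAL1 and KLF1 switch on the erythroid program in the marrow. During terminal maturation, mitochondria, nucleus and many proteins are removed, and hemoglobin messages come to dominate the RNA. In bulk blood, fewer red cells of a stage and less RNA per cell cannot be told apart.

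To show the regulatory sequence next to which these genes lie, promoters were read from RefSeq (assembly GRCr8, another build than that of the alignment), from 250 bases before to 50 bases after each start, and 20 of the 28 genes had an entry. The GATA core (AGATAA, or TTATCT on the other strand) stood in 6 of these 20 genes, or 30%, against 12.2% of the 27457 genes with a promoter. The KLF1 core (CACACCC, or GGGTGTG) stood in 6 of 20, or 30%, against 7.63%. Both cores were present for Add2, Rhd and Trim10, 15% of the 20 genes against 0.794% of all genes. The 4 sequences printed are the 150 bases before the start of genes described further on, with the cores in capitals. They belong to Add2 and Rhd, which hold both cores, to Sptb with a GATA core, and to Klf1, the gene of the factor that binds the second core. Their places are chr4:120054728-120054877 (plus strand) for Add2, chr5:152371050-152371199 (plus strand) for Rhd, chr6:101170279-101170428 (minus strand) for Sptb and chr19:40158652-40158801 (minus strand) for Klf1.
Add2: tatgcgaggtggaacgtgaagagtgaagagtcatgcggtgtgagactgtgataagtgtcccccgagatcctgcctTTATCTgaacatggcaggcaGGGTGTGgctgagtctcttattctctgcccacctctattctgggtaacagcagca
Rhd: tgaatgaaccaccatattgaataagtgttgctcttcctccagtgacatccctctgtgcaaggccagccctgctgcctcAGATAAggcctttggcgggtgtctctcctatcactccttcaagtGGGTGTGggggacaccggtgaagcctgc
Sptb: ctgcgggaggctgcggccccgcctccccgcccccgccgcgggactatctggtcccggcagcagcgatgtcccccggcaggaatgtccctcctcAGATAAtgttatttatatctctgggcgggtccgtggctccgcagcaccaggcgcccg
Klf1: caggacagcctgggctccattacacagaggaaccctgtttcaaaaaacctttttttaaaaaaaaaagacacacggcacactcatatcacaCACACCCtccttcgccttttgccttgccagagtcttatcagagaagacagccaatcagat
In Add2 the GATA core begins 75 bases before the start and the KLF1 core 55 bases before it, and in Rhd the distances are 72 and 28 bases. A match of these letters is a description and not a measured binding site.

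The libraries held 4149104 to 13205565 counts, of which 61.9% to 84.3% fell on the hemoglobin genes Hbb and LOC100134871. Hemoglobin counts stand for these 2 genes alone throughout. The ratio of Hbb to LOC100134871 was 7.17 in DOCA–HS before replicate 2 and 3.44 in DOCA–HS after replicate 2, against 2.00 to 2.41 in the other libraries. The 28 erythroid genes held 71630 to 375209 counts per library, 1.73% to 2.84% of the total, with 95% exact binomial intervals no wider than 0.0125 percentage points on either side, which cover counting error only. Bpgm, Bnip3l, Slc25a39, Car2 and Slc4a1 took 75.1% to 88.5% of them, without correction for transcript length. DOCA–HS after replicate 2 stood apart, with 84.3% hemoglobin, 651764 counts outside hemoglobin and 2686 genes at 10 or more counts, against 6097 to 8280 genes in the other libraries. Its share of erythroid counts in the total, 1.73%, was also the lowest, against 2.26% to 2.84% in the other 7 libraries. Among the counts outside hemoglobin, its erythroid share was instead the highest, above the 7.10% to 8.94% of the other 7 libraries. The 2 libraries of a group differed over these genes by more than counting alone gives (chi-square 130 to 291 for each degree of freedom). Normalized CPM is CPM taken over the library total multiplied by its TMM factor, and these factors spanned 0.343 (DOCA–HS after replicate 2) to 1.88 (DOCA–HS before replicate 1). Since the factors are set by all genes, each result is also given on the scale of plain total counts, as CPM, where that changes it.

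After CMG administration in the AngII model, the erythroid messages were lower than before it on the normalized scale, but no gene passed the criterion of the study (an unadjusted p-value no higher than 0.05 together with a log2 fold change past 1.5). Of the 27 genes tested, 0 passed in either direction, while 1.24% of all 7201 genes tested did. Gata1, the master erythroid transcription factor, had 0 to 6 counts per library and was left out by the filter on low counts. The fitted log2 fold changes lay between -0.96 (Tfrc, the transferrin receptor) and -0.14 (Gypc, glycophorin C), all 27 below 0 with normalized CPM (51% of all genes were) and 25 below 0 with total counts, where Gypc and Slc25a39 were above 0. Their median was -0.45, against -0.01 over all genes, and -0.23 against 0.36 with total counts. The smallest unadjusted p-value was 0.0769 (Sptb), the adjusted p-values were 0.752 to 0.956 (edgeR's quasi-likelihood test, Benjamini-Hochberg), and 0 members were at or under an unadjusted 0.05, as 6.65% of all genes were. With total counts 2 members were, Slc4a1 (log2 fold change -0.54, adjusted p = 0.340) and Sptb (-0.57, adjusted p = 0.594, edgeR), as 7.5% of all genes were, and again 0 passed the criterion.

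The membrane skeleton genes of the AngII model are shown by Sptb, which encodes erythroid beta-spectrin, and Add2, which encodes beta-adducin, a cap of the junctional actin filaments. Sptb stood at 417 and 673 normalized CPM before CMG and at 352 and 219 after it. Both after libraries were under both before libraries (log2 fold change -0.90 ± 0.45 SE). Add2 measured 988 and 942 before and 985 and 455 after CMG, so that 1 after library lay among the before libraries. Ank1, encoding the erythroid ankyrin, measured 102 and 104 before and 84.6 and 36.6 after (-0.74 ± 0.44, adjusted p = 0.774 in edgeR). The medians of the 6 role groups lay between -0.70 (iron uptake and mitochondrial carriers) and -0.35 (transcription and nuclear factors), with the membrane skeleton at -0.48.

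Among the membrane transport proteins of the AngII model, Slc4a1, which encodes the anion exchanger band 3, measured 3013 and 3198 normalized CPM before and 2294 and 1178 after CMG (-0.81 ± 0.54, adjusted p = 0.796 in edgeR). Its after libraries were both lower. Aqp1, the water channel that carries the Colton blood group, measured 909 and 823 before and 822 and 354 after, which just separates the groups. Of the erythroid nuclear factors, Hemgn, encoding hemogen, stood at 1022 and 869 before and at 1085 and 452 after, and Klf1 at 342 and 312 before and at 346 and 149 after. For both, the highest and the lowest library of the model were the 2 after libraries.

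Bpgm, the enzyme that makes the oxygen affinity modulator bisphosphoglycerate, measured 7609 and 10082 normalized CPM before and 7914 and 5127 after CMG in the AngII model. Car2, a carbonic anhydrase, measured 3508 and 3755 before and 3541 and 1788 after. Of the mitochondrial carriers, the iron importer gene Slc25a37 (mitoferrin) measured 181 and 108 before and 130.2 and 45.3 after, and Slc25a39, whose product carries glutathione into mitochondria, measured 3936 and 5631 before and 4570 and 3043 after. In each of these genes after replicate 1 lay between the before libraries and after replicate 2 lay below them. Bnip3l, the mitophagy receptor that clears mitochondria from reticulocytes, measured 4083 and 5106 before and 4427 and 2419 after, and Xpo7, a nuclear exportin that acts before enucleation, measured 762 and 734 before and 737 and 287 after.

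The lower values of the AngII model rested on 1 library. AngII after replicate 2 was the lowest of the 4 libraries in 27 of 27 genes on the normalized scale and in 24 of 27 with total counts. Without it the median log2 fold change of the 27 genes was -0.02, with 12 genes above 0, and without after replicate 1 it was -1.26, with 6 genes passing the criterion downward (Ank1, Car1, Slc25a37, Tal1, Tfrc and Ypel4), as 3.76% of all genes did in that fit, where the lone library is assumed to vary like the rest. The TMM factor of after replicate 2 was 1.36, against 0.776 to 0.964 in the other 3 libraries of the model, and its hemoglobin share was 68.5%, within the 66.0% to 69.9% of the others. Its summed level of 5 monocyte markers was 513 normalized CPM, within the 403 to 514 of those libraries, but 698 CPM of total counts, against 313 to 473. That of 4 B cell markers was 77.2 normalized CPM, against 40.0 to 62.3, and 105 CPM of total counts, against 38.5 to 48.4. That of the platelet markers was 48.4 normalized CPM, against 149 to 484. The part of these cells in the result was not tested. Both after libraries were below both before libraries in 7 genes (Ank1, Aqp1, Epb42, Rhd, Slc4a1, Sptb and Tmod1), as 18.5% of all genes were, and in 5 with total counts (Ank1, Bpgm, Slc4a1, Sptb and Tmod1), against 4.43% of all genes. The map of normalized CPM shows the pattern library by library.

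**Figure D1:**
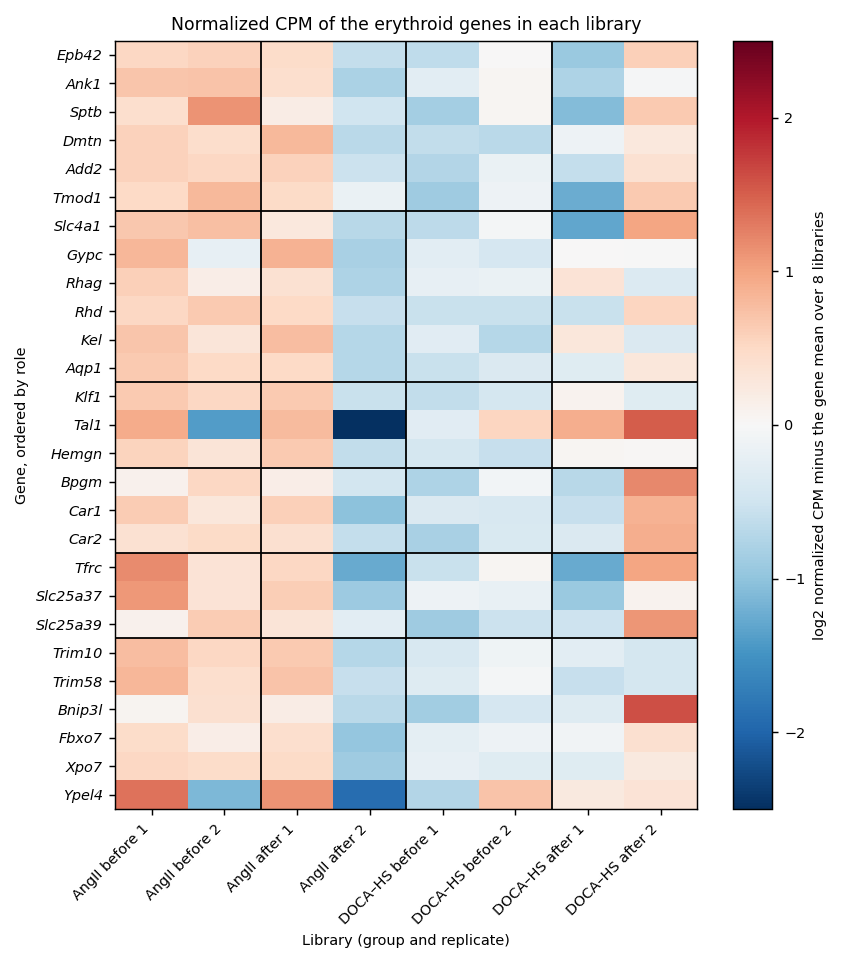
Heat map of the 27 tested erythroid genes (rows, by role) in the 8 libraries (columns), as log2 normalized CPM minus the mean of the gene over the libraries, with red above and blue below it. AngII after replicate 2 is below the mean in all rows, while Slc4a1, Sptb and Tmod1 are below it in DOCA–HS after replicate 1 and above it in after replicate 2.

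In the DOCA–HS model the same genes leaned the other way on the normalized scale, and again 0 of 27 passed the criterion, against 2.05% of all 7720 genes tested (1.79% up and 0.259% down). The log2 fold changes lay between -0.33 (Trim58, a ubiquitin ligase of terminal maturation) and 1.58 (Bnip3l, the mitophagy receptor), with 23 genes above 0 (47.5% of all genes were) and Ank1, Slc25a37, Trim10 and Trim58 below, but with total counts 25 were below 0 and only Tal1 and Bnip3l above. The median was 0.44 with normalized CPM, against -0.04 over all genes, and -0.48 with total counts, against -0.76 over all genes. Where each library needed 10 or more counts, it was 0.06 over 26 genes, with 16 above 0 and 10 below. The smallest unadjusted p-value was 0.0702 (Tal1) and every adjusted p-value was 0.997 (edgeR). At or under an unadjusted 0.05 were 0 members and 3.17% of all genes.

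Bnip3l measured 2134 and 2896 normalized CPM before and 3102 and 11823 after CMG in the DOCA–HS model (1.58 ± 1.00 SE, adjusted p = 0.997 in edgeR). Both after libraries were higher than both before libraries, and after replicate 2 was the highest by a wide margin. With total counts Bnip3l stood at 4001 and 3335 CPM before and 4461 and 4053 after, the only member higher in both after libraries on that scale, as 1.4% of all genes were. Xpo7, of the same role group, measured 459.8 and 433 normalized CPM before and 429 and 633 after. Slc25a39 stood at 1971 and 2498 before and 2551 and 7813 after (1.22 ± 0.92), and Slc25a37 at 77.3 and 74.7 before and 44.9 and 90.7 after. The 2 carriers thus differed in whether the after libraries overlapped the before libraries.

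Of the gas transport enzymes in the DOCA–HS model, Car2 measured 1532 and 2061 normalized CPM before and 2106 and 5087 after CMG (1.01 ± 0.84), and Bpgm 4087 and 6681 before and 4321 and 16098 after (0.93 ± 1.06). Slc4a1 measured 1215 and 1844 before and 776 and 3757 after, so that the after libraries enclosed the before libraries. The same held for Sptb, at 172 and 321 before and 148 and 492 after. Add2 measured 398 and 592 before and 436 and 864 after. Aqp1 stood at 396 and 452 before and 472 and 707 after, Hemgn at 509 and 464 before and 719 and 705 after, and Klf1 at 143 and 160.4 before and 234 and 178 after. In these 3 genes the groups did not overlap, which held on the normalized scale for 10 genes in the upward direction (also Bnip3l, Car2, Dmtn, Fbxo7, Gypc, Slc25a39 and Tal1), against 14.7% of all genes, and for Trim58 in the downward direction, against 21.1%.

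DOCA–HS after replicate 2 was the highest of its model in 18 of 27 genes with normalized CPM and the lowest in 24 of 27 with total counts. Without this library the median log2 fold change was 0.01, with 14 genes above 0 and 13 below. Without after replicate 1 it was 0.80, and Bnip3l, Car2 and Slc25a39 passed the criterion, 3 of 27, against 21.1% of all genes in that fit (7.46% up and 13.6% down). On the total count scale 10 genes were lower in both after libraries (Add2, Ank1, Bpgm, Epb42, Slc25a37, Slc4a1, Sptb, Tfrc, Tmod1 and Trim58), against 23.9% of all genes. The plot of fold changes gives every gene with its interval. Of the 27 intervals, 8 for AngII and 6 for DOCA–HS lay within 1.5 on the log2 scale on both sides of 0, and for the other genes changes beyond the criterion of the study were within the interval.

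**Figure D2:**
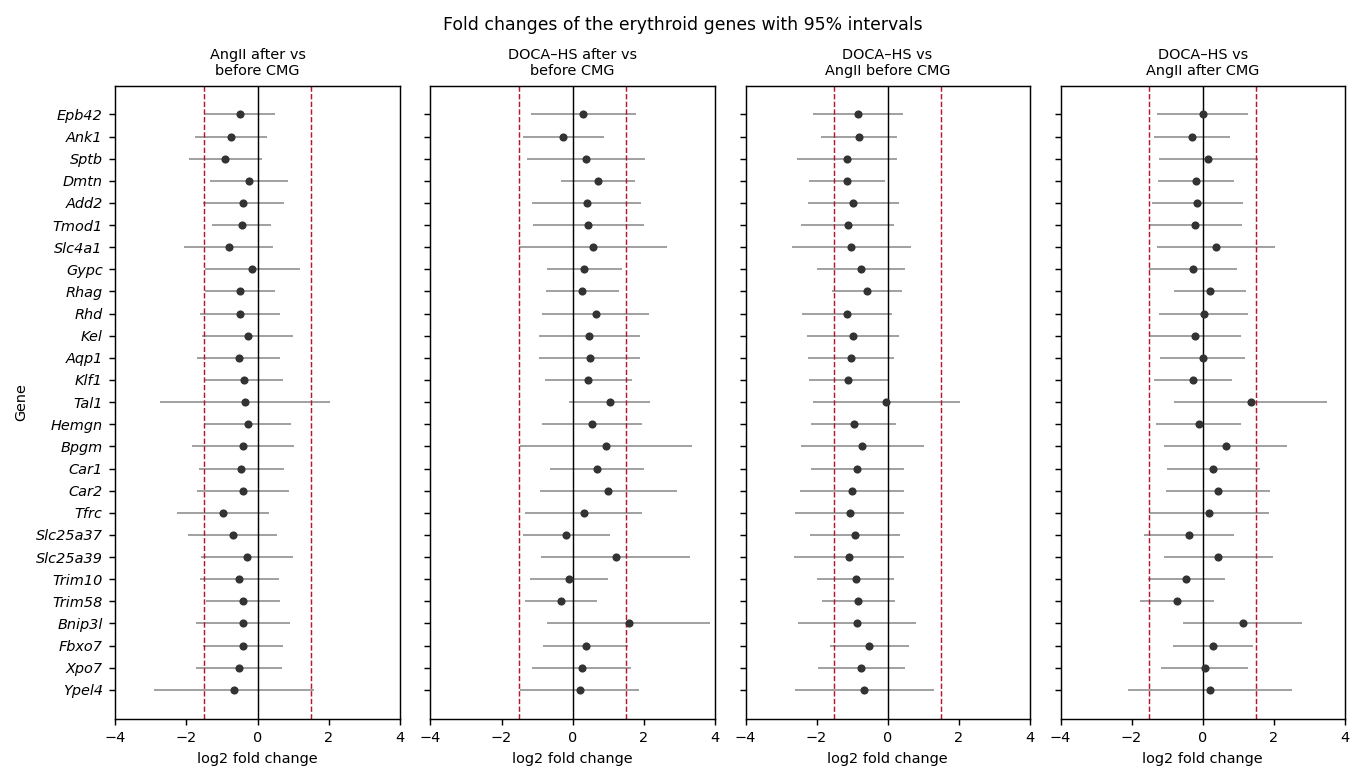
Log2 fold changes of the 27 genes in 4 comparisons (x axis, points), with 95% intervals from edgeR's quasi-likelihood fit (lines) and the threshold of 1.5 in either direction (dashed). The points of the AngII panel are all below 0 and those of the DOCA–HS panel mostly above 0 on the normalized scale (with total counts 25 of 27 were below 0 in both), and 1 interval in the 4 panels excludes 0 (Dmtn, before CMG).

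Before CMG, the DOCA–HS libraries had lower normalized levels of the erythroid genes than the AngII libraries, at different weeks of the models. The log2 fold changes were -1.15 to -0.04, below 0 for 27 of 27 genes with normalized CPM (44.8% of all genes were) and for 20 with total counts, with a median of -0.92 against 0.06 over all genes. No gene passed the criterion, which 0.838% of all 7994 genes did. Dmtn, which encodes dematin, an actin-bundling protein of the skeleton, measured 51.6 and 46.5 normalized CPM in the AngII and 22.4 and 21.7 in the DOCA–HS libraries (-1.15 ± 0.49). Its unadjusted p-value of 0.0374 was the only one of the 27 at or under 0.05, as 3.38% of all genes had, and its adjusted p-value was 0.992 (edgeR). With total counts 0 of the 27 were at or under 0.05, against 0.6% of all genes. In a fit on these 4 libraries alone, 23 of the 27 genes and 1081 of all 7470 genes tested were at or under an unadjusted 0.05, and 0 had an adjusted p-value under it (edgeR). In 25 of 27 genes, all but Tal1 and Ypel4, both DOCA–HS libraries lay below both AngII libraries on the normalized scale, against 21.2% of all genes. With total counts this held for 5 (Car2, Slc25a39, Slc4a1, Sptb and Tmod1), against 2.1%, and the median was -0.16, against 0.86 over all genes. With total counts, markers of some white cells lay apart between the same libraries, while those of neutrophils overlapped (228 and 176 in the AngII against 226 and 466 CPM in the DOCA–HS libraries). Those of cytotoxic lymphocytes summed to 28.7 and 25.4 against 38.3 and 39.1 CPM, but overlapped on the normalized scale (29.8 and 32.8 against 20.4 and 34.0). In CPM of total counts, the monocyte markers summed to 399 and 313 in the AngII and 814 and 784 in the DOCA–HS libraries, those of T cells to 142 and 133 against 291 and 185, and those of B cells to 38.5 and 48.4 against 176 and 80.9. On the normalized scale the monocyte markers summed to 415 and 403 against 434 and 681 and those of B cells to 40.0 and 62.3 against 93.9 and 70.2, while those of T cells overlapped. Of the 5 monocyte markers, 3 had log2 fold changes above 0 and 2 below (-0.37 to 0.69), and of 4 B cell markers 3 were above 0 and 1 below. The part of these cells in the result was not tested.

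After CMG the genes lay on both sides of 0 between the models on the normalized scale, with 15 above 0 (46.5% of all genes were) and 12 below (DOCA–HS against AngII), a median of 0.03 and 0 of 27 passing the criterion, against 1.4% of all genes. The range ran from -0.73 (Trim58) to 1.35 (Tal1), and 0 members were at or under an unadjusted 0.05, as 2.79% of all genes were (smallest 0.152, edgeR). With total counts 24 genes were below 0, with a median of -0.42 against -0.35. The side of 0 also turned with single libraries. Without AngII after replicate 1 the median was 0.72, with 27 of 27 genes above 0, without AngII after replicate 2 it was -0.49, with 22 below, and without DOCA–HS after replicate 2 it was -0.39, with 22 below. Where each library needed 10 or more counts, it was -0.29, with 19 of 26 below. The difference between the models in the change after CMG was above 0 for 27 of 27 genes with normalized CPM (44.5% of all genes were), from 0.09 (Trim58) to 1.99 (Bnip3l), with a median of 0.86 against -0.12 over all genes. It was below 0 for 24 of 27 with total counts, with a median of -0.29 against -1.21. On the normalized scale the median was 1.67 without AngII after replicate 1, 0.38 without AngII after replicate 2, 0.52 without DOCA–HS after replicate 2 and 0.41 where each library needed 10 or more counts, with 27, 22, 22 and 23 genes above 0. Of the 27 genes, 0 passed the criterion for this difference, against 3.16% of all genes, 0 were at or under an unadjusted 0.05, against 3.74%, and the adjusted p-values were 0.881 to 0.989 (edgeR). These comparisons use the same libraries as those within the models.

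The scale thus set the direction in the DOCA–HS model and for the difference between the models, and the plot of medians compares 6 scales. In the AngII model the median of the erythroid genes stayed below 0 under all 6 scales (-0.48 to -0.22) and under the median of all genes. In the DOCA–HS model the median was 0.44 with TMM factors, -0.10 relative to the total outside hemoglobin and -0.62 relative to hemoglobin counts, in each case above the median of all genes. Relative to hemoglobin, the erythroid genes held 43.1 and 38.5 counts per 1000 hemoglobin counts before and 40.6 and 33.0 after CMG for AngII. For DOCA–HS the ratios were 43.7 and 32.1 before and 36.2 and 20.5 after, the last in the library that stood apart. In both models the before and after ratios overlapped.

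**Figure D3:**
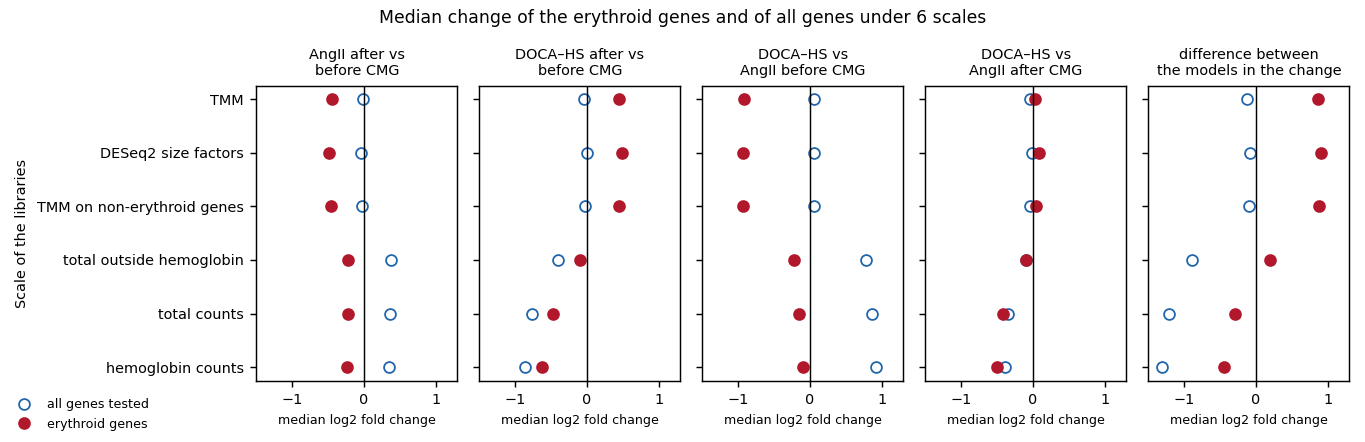
Median log2 fold change (x axis) of the 27 erythroid genes (filled) and of all genes tested (open) in the 5 comparisons, under 6 ways of scaling the libraries (rows). The filled points lie left of the open ones in the AngII panel and right of them in the DOCA–HS panel under every scale, while their side of 0 in the DOCA–HS panel depends on the scale. In the panel for the models after CMG, both points coincide for the total outside hemoglobin.

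The makeup of the erythroid messages does not depend on the scale of the libraries, so each gene was also taken as its share of the counts on the 28 genes, a measure chosen after the values were seen. Slc4a1 took 10.2% and 9.21% before and 7.67% and 7.08% after CMG for AngII, and 8.43% and 9.30% before and 4.60% and 7.46% after in the DOCA–HS model. Ank1 took 0.345% and 0.299% before and 0.283% and 0.220% after for AngII, and 0.366% and 0.329% before and 0.221% and 0.123% after in the DOCA–HS model. Sptb took 1.41% and 1.94% before and 1.18% and 1.32% after for AngII, and 1.2% and 1.62% before and 0.874% and 0.977% after in the DOCA–HS model. Band 3, ankyrin and beta-spectrin form a chain from the lipid membrane to the skeleton, and they were the 3 genes of the 27 whose after libraries lay below the before libraries in both models on this scale, against 0.702% of all 7118 genes tested in both. With total counts Bpgm and Tmod1 joined them, 5 of 27 against 2.22%, relative to hemoglobin the same 5 genes did so, against 2.01%, and with TMM factors 0 of 27 did, against 4.51%. Shares within 28 genes are not independent, since a gene that takes more leaves less to the others. With the sum of these genes as the scale, their own median log2 fold change was -0.10 for AngII and -0.28 for DOCA–HS. The median over all genes was 0.55 and -0.58, and 1.74% of all genes were lower in both after libraries for AngII. The 0.702% is thus set in part by the scale and is no like background for the 3 genes. The same holds for the 2.22% and 2.01%. With total counts 31.4% of all genes were higher in both after libraries for AngII and 4.43% lower, and relative to hemoglobin 30.2% and 4.39%. As hemoglobin took 61.9% to 84.3% of the counts, these 2 scales are also nearly the same.

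In an edgeR fit on the sum of these genes, Slc4a1 was at -0.40 for AngII (adjusted p = 0.721, and the only member with an unadjusted p-value under 0.05, 1 of 27 against 6.68% of all genes) and at -0.56 for DOCA–HS (adjusted p = 0.985). Ank1 was lower after CMG by the fit in both models on each of the 4 scales, from -0.26 in the DOCA–HS model with TMM factors to -1.34 relative to hemoglobin, at unadjusted p-values of 0.130 or more (edgeR). Without DOCA–HS after replicate 1 it was above 0 in that model with TMM factors. In the DOCA–HS model the shares of Add2, Epb42 and Tmod1 were also lower in both after libraries than in both before libraries, while those of Dmtn overlapped. The rest of the skeleton did not move as one in the shares of the AngII model. In the AngII model Tmod1, whose product caps the pointed ends of actin, took 0.336% and 0.352% before and 0.324% and 0.374% after, and Add2 took 3.35% and 2.72% before and 3.29% and 2.73% after, which left both groups overlapping.

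Bnip3l held a larger share after CMG in the DOCA–HS model, from 14.8% and 14.6% before to 18.4% and 23.5% after CMG, while its share in the AngII model was 13.8% and 14.7% before and 14.8% and 14.5% after. The fit on the sum of the genes gave a log2 fold change of 0.51 for DOCA–HS (adjusted p = 0.985), 0.04 for AngII (adjusted p = 0.949) and 0.47 for the difference between them (adjusted p = 0.636, edgeR). Slc25a39 took 13.7% and 12.6% before and 15.1% and 15.5% after in the DOCA–HS model. These were the 2 genes with separated, larger shares after CMG in that model, against 3.74% of all genes. In 9 of 27 genes (Add2, Ank1, Epb42, Slc25a37, Slc4a1, Sptb, Tfrc, Tmod1 and Trim58) the shares were separated and smaller, against 26.4% of all genes. For AngII 0 of the 27 had separated, larger shares, against 35.6%, and 3 had smaller ones, against 1.74%. As the scale is the sum of these genes, the percentages over all genes are no like background for them. Kel, which encodes the Kell blood group protease, marked how far 2 libraries of a group could lie apart, with 3.77% and 0.808% after CMG in the DOCA–HS model. The plot of shares shows these genes.

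**Figure D4:**
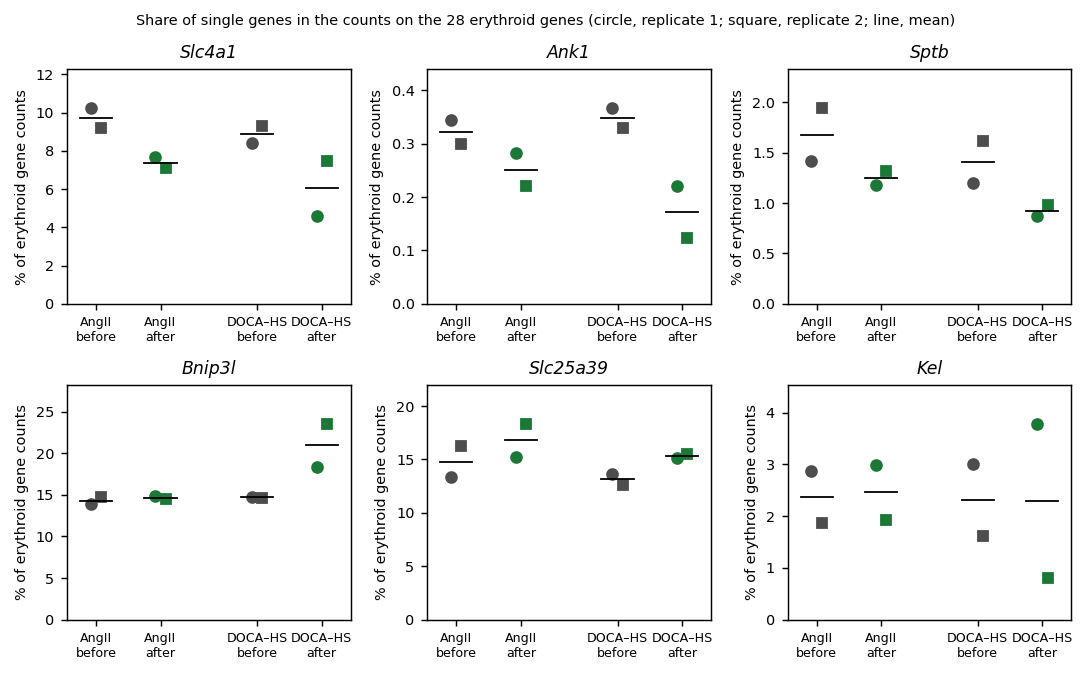
Share of 6 genes in the counts on the 28 erythroid genes (y axis, percent) in the 4 groups (x axis), with replicate 1 as circles, replicate 2 as squares and the mean as a line. Slc4a1, Ank1 and Sptb are lower in the after libraries of both models, Bnip3l is higher after CMG in the DOCA–HS model, and Kel spreads widely between replicates.

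Tal1, the basic helix-loop-helix factor of blood stem cells that erythroid cells share with the megakaryocytes that shed platelets, varied widely between replicates. It had 311 and 29 counts before and 140 and 22 after CMG for AngII, and 190 and 176 before and 313 and 52 after for DOCA–HS. In CPM of total counts these were 23.6, 3.80, 20.6, 2.21, 19.7, 21.5, 34.6 and 12.5. On the normalized scale replicate 1 was 4.99 times replicate 2 before and 13.8 times after CMG for AngII, and its fold change had an interval from -2.74 to 2.04 there. The summed level of the platelet markers found (Pf4, Ppbp, Gp9 and Gp1bb, the last at 0 in every library) was 466, 116, 399 and 65.8 CPM of total counts in the AngII and 297, 249.5, 657 and 255 in the DOCA–HS libraries, in the same order. The libraries with little Tal1 in the AngII model were those with few platelet marker counts, and the part of platelets in its values was not tested. Ypel4, with 2 to 36 counts, was higher in replicate 1 of both AngII groups too.

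**Figure D5:**
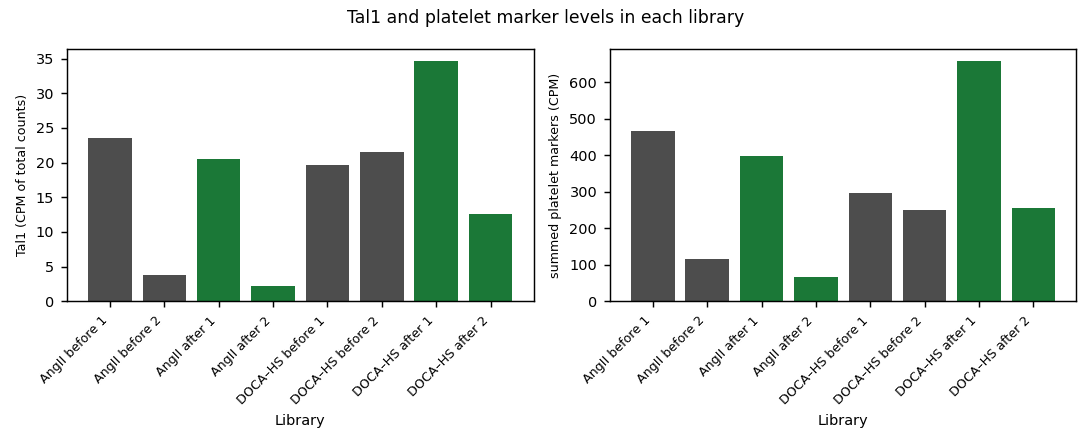
Tal1 (left) and the summed platelet markers (right) in each of the 8 libraries, as CPM of total counts (y axes, from 0), with libraries before CMG in grey and after CMG in green. The second AngII library of each time point is low in both panels, and DOCA–HS after replicate 1 is highest in both.

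Of the other genes of the erythroid pathway 46 were listed and 45 found, and on the normalized scale their medians had the same signs as those of the 27 genes. Their summed level for AngII was 50419 and 57215 normalized CPM before and 49304 and 28209 after CMG, and 48573 and 44401 CPM before and 45300.4 and 38370.0 after with total counts. For DOCA–HS it was 24749 and 33577 before and 27132 and 72225 after when normalized, and 46387 and 38663 before and 39011 and 24756 after with total counts, so the side of the higher mean changed with the scale. Alas2 and Tmcc2 made up most of these sums, with 199514 and 211176 of 641433 counts in AngII before replicate 1. In the AngII model 0 of 43 tested passed the criterion, against 1.24% of all genes, with a median of -0.44. Alas2, the first enzyme of heme synthesis in red cells, was at -0.44, the alpha-globin chaperone gene Ahsp at -0.38 and the erythropoietin receptor Epor at -0.65. In the DOCA–HS model 2 of 43 passed, both upregulated with normalized CPM, against 2.05% of all genes, and the median was 0.56. With total counts 0 of 43 passed and the median was -0.55. These were Alad, the second enzyme of heme synthesis (log2 fold change 1.80), and Icam4, the Landsteiner-Wiener blood group protein (2.12), both with an adjusted p of 0.997 (edgeR). Icam4 had 25 and 19 counts before and 56 and 18 after. Alas2, Ahsp and Epor were at 0.98, 1.31 and 1.03 in this model. Before CMG 0 of 44 passed between the models (median -0.89), against 0.838% of all genes, and after CMG 0 of 44 (median 0.10), against 1.4%. For the difference between the models, 3 of 44 passed, against 3.16% of all genes. Alad (2.20) and Icam4 (2.75) passed upward and Slc14a1, a urea transporter with 0 to 24 counts, downward (-2.68), each with an adjusted p of 0.881 (edgeR), and with total counts 0 of 44 passed.

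As to other cells the blood could hold, 4 of 5 heart muscle markers (Myh6, Actc1, Myl7 and Ryr2) were at 0 in every library, and the fifth had at most 1 count. Markers of T cells summed to 38.1 to 291 CPM of total counts, those of B cells to 11.1 to 176 and those of monocytes to 135 to 907, with the lowest value of each in DOCA–HS after replicate 2. Neutrophil markers summed to 164 to 466 and those of cytotoxic lymphocytes to 21.2 to 77.7 CPM of total counts, both also lowest in that library. Those of endothelium summed to 12.2 to 69.2 CPM of total counts. On the normalized scale the same library had the highest sums of neutrophil (478), platelet (744) and endothelium (151) markers, the last from 215 counts. Of the 5 neutrophil markers, 2 were above 0 and 3 below after CMG in the DOCA–HS model (log2 fold changes -3.27 to 0.85). The part of these cells in the erythroid values was not tested.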

How the data were processed

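Whole blood RNA-seq libraries (8 in all, 2 per group) were analysed. The authors aligned single-end reads to rn6 with HISAT2 and counted them by strand with HTSeq, their own test was DESeq2, and the deposited values are raw counts per gene. Their methods state that hemoglobin annotations were removed before counting, although Hbb and LOC100134871 are among the deposited counts. There were 0 columns of other samples.

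The genes and lists were chosen with earlier results of these data known. Genes were matched by symbol. edgeR 4.0.16 (R 4.3.3) was used for the quasi-likelihood test (filterByExpr, TMM factors), with Benjamini-Hochberg adjustment over all genes tested. The change after CMG was fitted on the 4 libraries of each model, and the contrasts between models and the difference in change on all 8 libraries with 4 group means. A gene passed by the criterion of the study, a log2 fold change beyond 1.5 with an unadjusted p no higher than 0.05. Libraries were taken as unpaired. Values in every library were given for the genes that passed in any comparison (0 genes) and for the 2 with the highest mean CPM in each of 6 role groups. Other genes are named at the ends of a range or chosen after their values were seen, such as Ank1, Dmtn, Kel, Tal1 and Tmod1. Markers of T cells, B cells, monocytes, neutrophils, platelets, cytotoxic lymphocytes, heart muscle and endothelium were summed. The fits were tested on simulated data.

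The alternatives were DESeq2 1.42.0, limma-voom (limma 3.58.1), DESeq2 size factors, total counts with and without hemoglobin, hemoglobin counts, TMM on non-erythroid genes, other filters, other libraries in the fit, adjusted p-values, a replicate block and each library left out. The sum of the erythroid genes as the scale was chosen after seeing the data. Depth was 4149104 to 13205565 counts per library, and intervals cover counting error only.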

Additional observations from a re-analysis of the deposited data

How the results depend on the processing

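Among the values for whole comparisons, 159 recomputed ones stayed within the spread of the libraries or within 1.5 times the count, and 29 moved. This tally is no measure of stability, since a count of 0 that remained 0 stayed, and the setting with adjusted p-values left the medians unchanged. The spread was 0.52 (log2) for AngII and 0.62 for the models after CMG. With 1 library left out, medians going from -0.45 to -0.016 (AngII) and from 0.03 to -0.49 (after CMG) thus counted as staying. Of 2398 recomputed values for single genes, 1917 stayed, 452 moved, 29 came to pass the criterion, and 0 reversed a call, as no gene had passed. For DOCA–HS after against before CMG, the median of 0.44 (log2) became -0.48 with total counts, -0.10 with the total outside hemoglobin, -0.62 relative to hemoglobin and -0.28 relative to the sum of the genes, and DESeq2 called 1 gene (Bnip3l), with 2.84% of all genes. Over all genes that median of -0.04 became -0.76, -0.41, -0.86 and -0.58 on these scales. For the models before CMG, the median of -0.92 became -0.16, -0.22, -0.10 and -0.016 on these scales. Over all genes it moved up as well, from 0.06 to 0.86, 0.78, 0.92 and 0.99, so the erythroid genes stayed below the rest. The sum of the genes as the scale draws their own median towards 0, so its value is no test of a difference. When each library needed 10 or more counts, the medians were -0.40 for AngII, 0.06 for DOCA–HS, -0.69 before and -0.29 after CMG and 0.41 for the difference, over 26 genes. After CMG, limma-voom called 1 gene (Tal1), with 2.11% of all genes. For the difference between the models, the median of 0.86 became -0.29, 0.20, -0.44 and -0.14, and DESeq2 called 3 genes (Bnip3l, Car2 and Slc25a39), with 3.9% of all genes. The median of this difference over all genes went from -0.12 to -1.21, -0.89, -1.30 and -1.22. Beyond the scaling itself, the cause of these shifts was not tested. With 1 library left out, the median ranged from -1.26 to -0.016 for AngII, from 0.014 to 0.80 for DOCA–HS, from -1.17 to -0.76 before and from -0.49 to 0.72 after CMG, and from 0.38 to 1.67 for the difference. The genes called then numbered 0 to 6, 0 to 3, 0 to 0, 0 to 1 and 0 to 8, in the same order. The highest counts came without AngII after replicate 1 (6 genes, with 4.97% of all genes) and without DOCA–HS after replicate 1 (3 genes, with 21.1% of all genes, and 8 for the difference, with 23.2%), and in such fits a lone library is assumed to vary like the others.

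The labels do not say whether a replicate number marks a rat. The differences between replicates 1 and 2 before and after CMG correlated at 0.41 (AngII) and 0.31 (DOCA–HS) over 7994 genes. Over the 27 erythroid genes the correlations were higher, at 0.94 (AngII) and 0.51 (DOCA–HS). A correlation over 27 genes can rest on a few that differ widely between replicates, such as Tal1 for AngII, and this was not tested. With a replicate block, the medians were -0.55 (AngII), 0.35 (DOCA–HS) and 0.96 for the difference, where 1 gene was called (Tal1), with 5.68% of all genes. In the AngII model 1 member had an adjusted p-value under 0.05 with the block (Tfrc, edgeR), beside 165 of all genes, and 0 had one without it. The number of 2 libraries per group limits every interval given.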
